A study of Mus musculus with 6 samples.

Results

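The forkhead transcription factor genes of a set of 7 with known roles in blood vessels were followed in sorted embryonic heart endothelium after deletion of *Wt1*: *Foxo1*, *Foxo3* and *Foxo4* of the FOXO class, *Foxc1* and *Foxc2* of the FOXC class, *Foxf1* and *Foxp1*. They were taken by symbol, and all 7 were among the 55416 genes of the count table. Their messenger RNA was measured by RNA-Seq in membrane GFP-positive (mGFP+) coronary endothelial cells (ECs) isolated by FACS from collagenase-digested ventricles of mouse hearts at E15.5 (embryonic day). *ControlΔEC* embryos (3 libraries) were *Pdgfb-CreERT2/+; Wt1 +/+; R26-mTmG/+*, and *Wt1KOΔEC* embryos (3 libraries) were *Pdgfb-CreERT2/+; Wt1 LoxP/LoxP; R26-mTmG/+*. Dams of both genotypes' embryos received oral tamoxifen at 75 mg/kg during E11.5 to E13.5, so control cells also carried the active Cre and had recombined the mTmG reporter. The *Pdgfb*-driven Cre marks ECs of coronary arteries and veins, and the sort therefore selected for cells in which Cre had acted. RNA of other cells was still present, as given below. Embryos of both genotypes came from the same litters, and the labels call the libraries biological replicates without saying which embryos or litters each holds.

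Forkhead factors bind DNA through a shared winged-helix domain. FOXO proteins are switched by growth factor signalling: AKT phosphorylates them, Ywha adaptor proteins then hold them outside the nucleus, and when signalling falls they enter the nucleus and switch on genes of cell cycle arrest, stress resistance and catabolism. In endothelium FOXO1 restrains growth and metabolism, and embryos without it die from failed vessel remodelling. FOXC1 and FOXC2 act in arterial specification and in lymphatic vessels, FOXF1 in vessels of the lung and gut, and FOXP1 is broadly made in ECs. Because FOXO activity is set largely by where the protein sits in the cell, an RNA level alone does not report it.

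The 7 genes are recognised by the part of their coding sequence that specifies the DNA-binding domain. The window of 60 coding bases in *Foxo1* whose best matches in the other genes were jointly most like it is printed with those matches. It shows how near the members are to each other and whether short reads could be shared between them. It was read from GRCm39 with GENCODE vM39 transcripts, 5′ to 3′ on the coding strand, and capitals mark the 21 bases common to all 7.
Foxo1: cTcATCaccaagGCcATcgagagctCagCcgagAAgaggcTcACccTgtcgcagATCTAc
Foxo3: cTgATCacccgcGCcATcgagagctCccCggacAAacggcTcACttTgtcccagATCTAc
Foxo4: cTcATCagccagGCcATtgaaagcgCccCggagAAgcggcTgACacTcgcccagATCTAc
Foxc1: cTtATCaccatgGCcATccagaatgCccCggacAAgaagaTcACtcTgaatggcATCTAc
Foxc2: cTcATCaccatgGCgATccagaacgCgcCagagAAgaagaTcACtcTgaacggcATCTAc
Foxf1: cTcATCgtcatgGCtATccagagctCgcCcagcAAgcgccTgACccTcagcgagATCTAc
Foxp1: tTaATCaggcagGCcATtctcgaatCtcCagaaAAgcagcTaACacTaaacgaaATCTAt

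These windows lie in coding exons at chr3:52176715-52176774 (plus strand) for *Foxo1*, chr10:42150881-42150940 (minus) for *Foxo3*, chrX:100298751-100298810 (plus) for *Foxo4*, chr13:31991446-31991505 (plus) for *Foxc1*, chr8:121843588-121843647 (plus) for *Foxc2* and chr8:121811303-121811362 (plus) for *Foxf1*. In *Foxp1* the window is split over an intron, between chr6:98921634-98922319 on the minus strand. Over the window *Foxo3* shared 78.33% and *Foxo4* 76.67% of bases with *Foxo1*, while *Foxp1* shared 55.0%. *Foxc1* and *Foxc2* were the most alike of the 21 pairs, at 88.33%. Over whole transcripts, *Foxc1* and *Foxc2* were also the only pair with an identical stretch as long as a read of 51 bases (their longest was 53 bases), so a few reads could be assigned to either of them. The longest stretch shared by *Foxo1* and *Foxo3* was 38 bases.

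The gene bodies lie at chr3:52175757-52260642 for *Foxo1*, chr10:42057837-42154007 for *Foxo3*, chrX:100298073-100304479 for *Foxo4*, chr13:31990616-31996459 for *Foxc1* and chr6:98902299-99499685 for *Foxp1*. *Foxf1* (chr8:121811074-121814883) and *Foxc2* (chr8:121842910-121845634) are neighbours, 28027 bp apart on the same strand.

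Libraries held between 26037324 and 44779020 counts, and levels are given as CPM, the counts per library total after TMM scaling. The targeted gene fell as its labels say: *Wt1* measured 145, 109 and 149 CPM in the control libraries and 14.0, 18.4 and 21.3 CPM in the *Wt1KOΔEC* libraries (log2 fold change -2.91, edgeR adjusted p = 0.00319). Endothelial markers were strong in every library, with a summed level of 7 genes (*Pecam1*, *Cdh5*, *Cldn5*, *Kdr*, *Tek*, *Erg*, *Emcn*) of 3960 to 5127 CPM in controls and 4128 to 4747 CPM in *Wt1KOΔEC*. RNA of other cells was present too and in part moved with genotype. Summed mural cell markers were 178 to 365 CPM in controls and 142 to 155 CPM in *Wt1KOΔEC*, and macrophage markers 182 to 554 and 112 to 170 CPM. Of the mural list, the paper counts *Rgs5* and *Kcnj8* as arterial markers. Fibroblast markers were 313 to 475 and 525 to 695 CPM, and the paper counts *Col1a1* and *Dcn* of that list as venous markers. Of the 6 genes, 5 had a log2 fold change above 0 and 1 below. edgeR called *Col1a1*, which averaged 114 and 290 CPM without overlap (log2 fold change 1.34, edgeR adjusted p = 0.0441). *Dcn* averaged 33.6 and 65.7 CPM, also without overlap (edgeR adjusted p = 0.242, DESeq2 adjusted p = 0.0454). The largest such signal was erythroid: *Hbb-bs*, *Hba-a1*, *Hbb-y* and *Alas2* summed to 4075 to 9197 CPM in controls and 3027 to 5113 CPM in *Wt1KOΔEC*, with overlap. Within it the embryonic globin gene *Hbb-y* averaged 26.2 and 156 CPM (DESeq2 adjusted p = 0.0135) and *Alas2*, of heme synthesis, 139 and 62.9 CPM (DESeq2 adjusted p = 0.0337), neither with overlap, while edgeR called neither (adjusted p = 0.128 and 0.243). The sums of endocardial markers (214 to 323 and 292 to 397 CPM), cardiomyocyte markers (94.3 to 130 and 70.4 to 171 CPM) and epicardial markers (11.0 to 17.1 and 13.4 to 29.8 CPM) overlapped between the genotypes. Yet all 5 endocardial genes had a log2 fold change above 0. *Hapln1* (means 30.1 and 46.9 CPM, DESeq2 adjusted p = 0.0115) and *Tmem108* (18.7 and 41.7 CPM, DESeq2 adjusted p = 0.0272) did not overlap. Of the epicardial genes 3 lay above 0 and 2 below. *Upk3b* (2.03 and 9.05 CPM, DESeq2 adjusted p = 0.0165) and *Upk1b* (1.46 and 3.51 CPM) were higher without overlap. edgeR called none of these endocardial and epicardial genes. The dissociation response genes (*Fos*, *Jun*, *Egr1*, *Atf3*, *Hspa1a*) summed to 1426 to 1760 and 1919 to 2780 CPM. In bulk RNA of this kind, fewer cells of a type and less RNA per cell cannot be told apart.

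A gene entered edgeR's quasi-likelihood test if 2 or more libraries each held 10 or more of its counts, and 6 of the 7 forkhead genes did, with *Foxf1* left out. A gene was called at an adjusted p under 0.05 with an absolute log2 fold change above 0.58. None of the 6 was called, where 0.0736% of all 16296 genes tested were. At an unadjusted p under 0.05, 1 of the 6 was lower in *Wt1KOΔEC* (*Foxo1*) and none was higher, beside 7.12% of all genes lower and 5.96% higher. With DESeq2, *Foxo1* alone of them was called, where 4.67% of all genes given an adjusted p were called and 2.54% were called lower. The paper, which used DESeq2 on the same samples, already names *Foxo1* among its downregulated genes. The control and *Wt1KOΔEC* libraries did not overlap for 3 of the 6 genes, with *Foxo1* and *Foxo3* lower and *Foxc2* higher in *Wt1KOΔEC*, beside 8.95% of all genes without overlap in the lower and 10.4% in the higher direction. The median log2 fold change of the 6 was 0.08, and that of all genes tested -0.03.

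**Figure D1:**
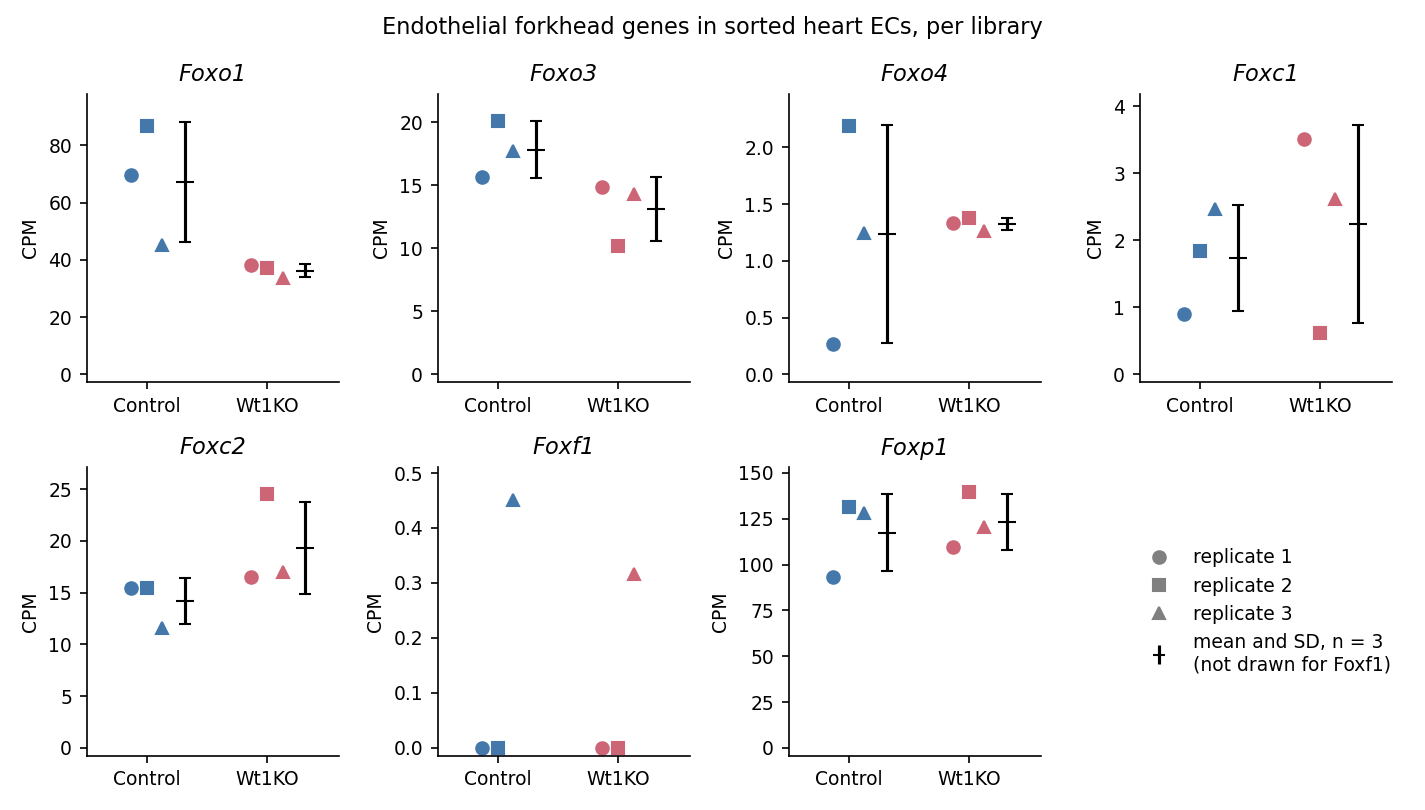
Level of each forkhead gene in CPM (linear axis from 0, its own scale per panel) in the 3 ControlΔEC (blue) and 3 Wt1KOΔEC (red) libraries; symbols give the replicate number and the bar the mean with SD. Foxo1 and Foxo3 lay lower and Foxc2 higher in every Wt1KOΔEC library than in any control library, while Foxp1, Foxo4 and Foxc1 overlapped and Foxf1 was read in 2 libraries.

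*Foxo1*, the main FOXO gene of these cells, measured 69.5, 86.8 and 45.1 CPM in control replicates 1, 2 and 3 and 38.0, 37.1 and 33.6 CPM in *Wt1KOΔEC* replicates 1, 2 and 3. Every *Wt1KOΔEC* library was below every control library, and the controls spread far more widely among themselves. The means were 67.1 ± 20.9 and 36.2 ± 2.32 CPM (SD, n = 3 each), 46.0% lower in *Wt1KOΔEC*. The fitted log2 fold change was -0.89 (SE 0.24, 95% interval -1.44 to -0.34), at an unadjusted p of 0.00493 and an edgeR adjusted p of 0.209. DESeq2, which was run without the count filter, gave almost the same size, -0.90, with an adjusted p of 0.0235. edgeR without that filter gave -0.89, with an adjusted p of 0.0478. The size of the change was therefore shared by both tools, while the call differed with the filter in edgeR. DESeq2 was not run with the filter.

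The spread of *Foxo1* among controls ran alongside RNA of some other cell types and not of others. Macrophage markers (*Csf1r*, *Adgre1*, *Cd68*, *C1qa*, *Fcer1g*) summed to 266, 554 and 182 CPM in control replicates 1, 2 and 3 and to 163, 170 and 112 CPM in the *Wt1KOΔEC* libraries. The erythroid sum of the 4 genes above was 5337, 9197 and 4075 CPM in the controls and 5113, 3027 and 5030 CPM in *Wt1KOΔEC*. The control libraries thus stood in the same order for *Foxo1*, the macrophage sum and the erythroid sum, with replicate 2 the highest and replicate 3 the lowest. The lymphatic endothelial sum had this order too (270, 283 and 267 CPM). The fibroblast sum (475, 313 and 468 CPM) and the mural sum (365, 178 and 364 CPM) had replicate 2 the lowest. So did the endocardial (227, 214 and 323 CPM) and epicardial sums (11.3, 11.0 and 17.1 CPM). The cardiomyocyte sum had replicate 2 the highest but replicate 1 the lowest (94.3, 130 and 114 CPM). All 5 macrophage genes had a log2 fold change below 0 and 3 of them an unadjusted p under 0.05, and no gene of that list was at 0 in all libraries. The part of macrophage or erythroid RNA in the *Foxo1* result was not tested. Without control replicate 2, the log2 fold change of *Foxo1* was -0.66 (edgeR adjusted p = 0.260), and without control replicate 3 it was -1.11 (edgeR adjusted p = 0.0616).

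**Figure D2:**
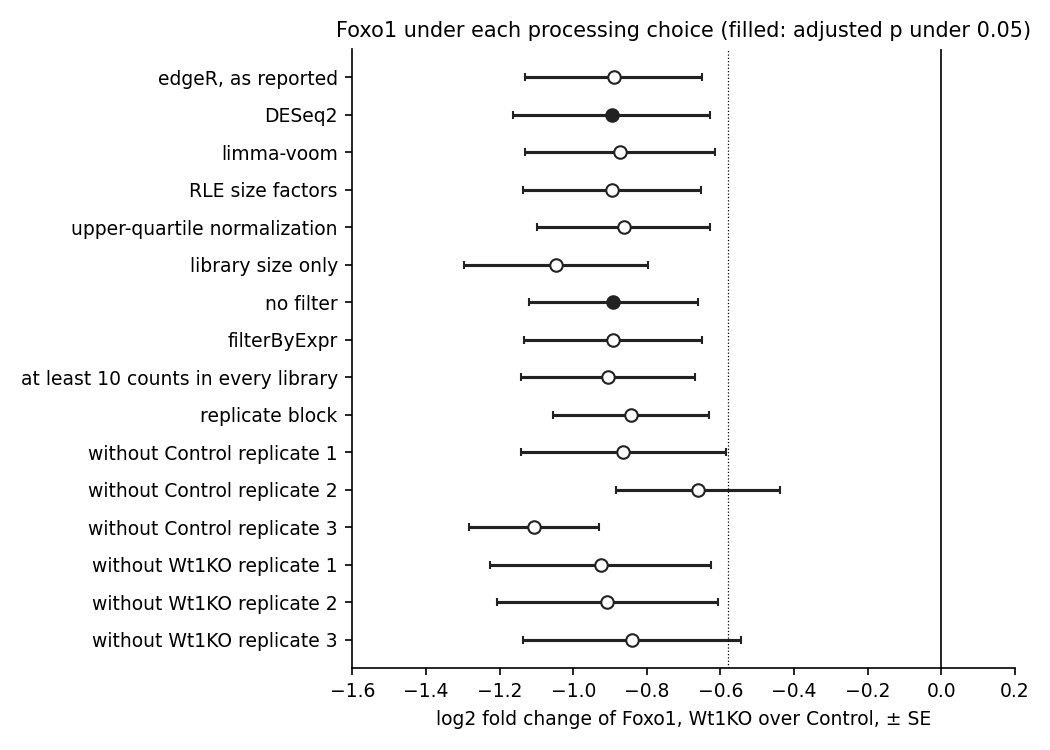
Log2 fold change of Foxo1 (Wt1KOΔEC over ControlΔEC, ± SE) as reported and under 15 other processing choices; filled points have an adjusted p under 0.05, the dotted line marks -0.58. Every value lay between -1.11 and -0.66, and 2 choices (DESeq2 and no filter) were filled.

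*Foxo3*, a FOXO gene expressed in many tissues, measured 15.6, 20.1 and 17.7 CPM in controls and 14.8, 10.2 and 14.3 CPM in *Wt1KOΔEC*. The genotypes did not overlap, but only by the narrow gap between 15.6 and 14.8 CPM. The means were 17.8 ± 2.25 and 13.1 ± 2.56 CPM, and the log2 fold change of -0.44 (SE 0.27, 95% interval -1.05 to 0.16) did not pass the test (edgeR adjusted p = 0.549).

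*Foxo4*, the X-linked FOXO gene, had few counts, and they differed widely between control replicates 1 and 2, which were of like depth. It measured 0.268, 2.19 and 1.25 CPM in controls, from 12, 108 and 36 counts, and 1.33, 1.38 and 1.27 CPM in *Wt1KOΔEC*, from 52, 49 and 32 counts. The 3 *Wt1KOΔEC* libraries were close to each other and lay within the range of the controls. The 95% interval of its log2 fold change, -2.22 to 2.42, included changes of either sign (fitted value 0.10, edgeR adjusted p = 0.986).

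Per kilobase of exon, the scale on which genes can be set against each other, *Foxo1* made up 75.4 ± 6.52% of the summed FOXO messenger RNA in controls and 68.6 ± 3.82% in *Wt1KOΔEC*. *Foxo3* made up 21.0 ± 5.08% and 24.8 ± 4.22%, and *Foxo4* 3.61 ± 2.42% and 6.56 ± 0.460%. *Foxo1* thus remained the larger part of FOXO message in all 6 libraries. The FOXO sum was 9.27, 12.2 and 7.14 CPM per kb in controls and 6.08, 5.49 and 5.54 CPM per kb in *Wt1KOΔEC*, without overlap. The ratio of *Foxo1* to *Foxo3* was 4.43, 4.29 and 2.54 in controls and 2.55, 3.63 and 2.34 in *Wt1KOΔEC*. That ratio was 0.39 lower on the log2 scale in *Wt1KOΔEC* (difference -0.39), which a two-sided exact permutation test over libraries did not separate (p = 0.3, where 0.1 is the smallest p that 3 against 3 can give).

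*Foxc2*, which acts in arterial and lymphatic endothelium, was the only one of the 7 that lay higher in every *Wt1KOΔEC* library than in any control. It measured 15.4, 15.48 and 11.6 CPM in controls and 16.5, 24.5 and 17.0 CPM in *Wt1KOΔEC* (means 14.2 ± 2.24 and 19.3 ± 4.48 CPM). Replicate 2 of *Wt1KOΔEC* stood well above the rest, and the other *Wt1KOΔEC* libraries lay just above the highest control. The log2 fold change of 0.45 (SE 0.27, 95% interval -0.16 to 1.06) did not pass the test (edgeR adjusted p = 0.551). The summed lymphatic endothelial markers (*Prox1*, *Lyve1*, *Pdpn*, *Flt4*) were 267 to 283 CPM in controls and 277 to 370 CPM in *Wt1KOΔEC*. Most of that sum was *Flt4* (means 238 and 264 CPM), which overlapped between the genotypes. All 4 genes had a log2 fold change above 0. *Prox1* was higher without overlap, averaging 19.1 CPM in controls and 40.4 CPM in *Wt1KOΔEC* (DESeq2 adjusted p = 0.0396, edgeR adjusted p = 0.235). *Lyve1* and *Pdpn* overlapped. The part of lymphatic endothelial RNA in the *Foxc2* values was not tested.

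*Foxc1*, its close relative, was a low-level gene here, with 0.894, 1.84 and 2.46 CPM in controls and 3.50, 0.618 and 2.61 CPM in *Wt1KOΔEC*. Both the lowest and the highest value belonged to *Wt1KOΔEC*. The log2 fold change of 0.37 had a 95% interval of -1.65 to 2.39 (edgeR adjusted p = 0.927), too wide to tell a rise from a fall.

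*Foxf1* had no count in 4 of the 6 libraries and 13 and 8 counts in control replicate 3 and *Wt1KOΔEC* replicate 3. A count of 0 still allows up to 3 counts, which is 0.0608 to 0.119 CPM in these libraries and covers counting error only. The endothelial label of the set was thus not borne out for *Foxf1* in these coronary cells at this depth. *Fendrr*, the long noncoding RNA that starts 1225 bp from *Foxf1* on the opposite strand, was equally rare, with 0, 0 and 1 counts in controls and 0, 15 and 0 in *Wt1KOΔEC*.

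*Foxp1* had the highest CPM of the 7 and the smallest fitted change, with 93.0, 131 and 128 CPM in controls and 109, 140 and 121 CPM in *Wt1KOΔEC*. The genotypes overlapped almost fully (means 117 ± 21.2 and 123 ± 15.2 CPM). The log2 fold change of 0.07 (SE 0.18, edgeR adjusted p = 0.936) had a 95% interval of -0.35 to 0.48, which lies inside the limit of 0.58 in both directions. Its sign turned under library size scaling alone (-0.088), under which the median of all genes also shifted by -0.15. The ratio of *Foxo1* to *Foxp1* per kb, which needs no scaling between libraries, was 1.303, 1.15 and 0.615 in controls and 0.606, 0.464 and 0.487 in *Wt1KOΔEC*. The ratio was lower in every *Wt1KOΔEC* library, by a narrow margin against control replicate 3, and the difference of -0.92 on the log2 scale reached the smallest p this design allows in the two-sided exact permutation test (p = 0.1).

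**Figure D3:**
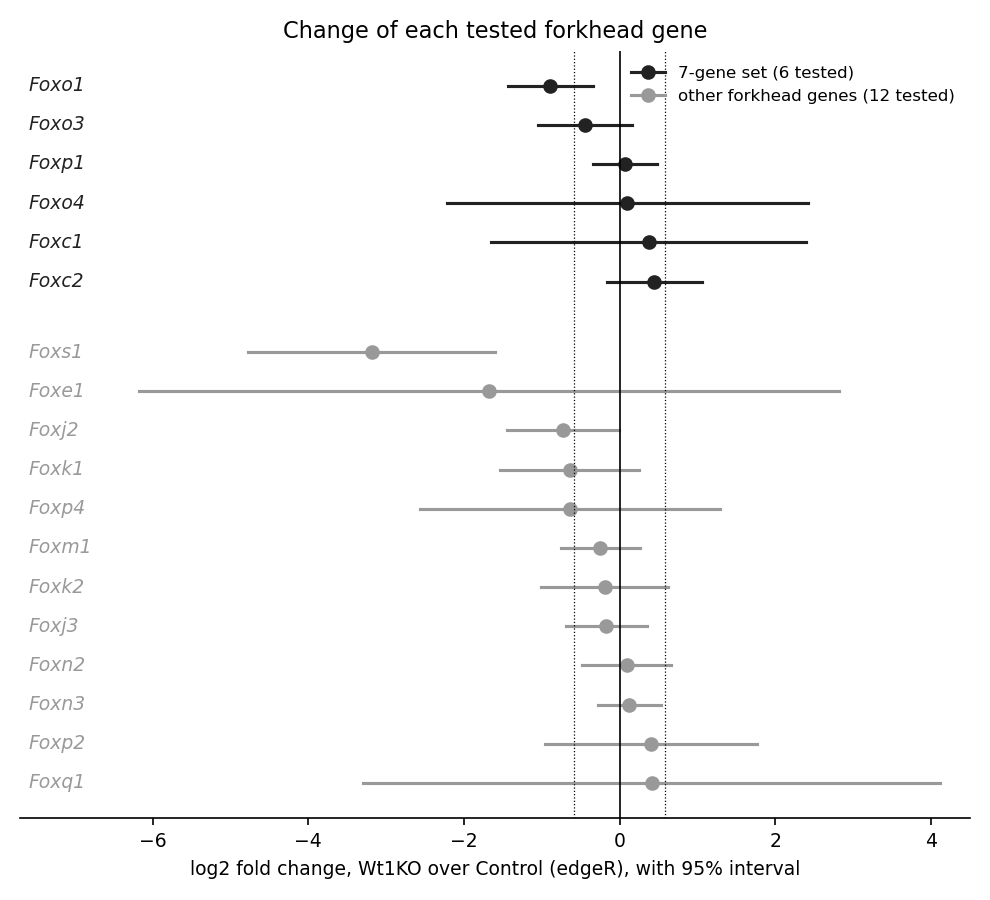
Log2 fold change (Wt1KOΔEC over ControlΔEC, edgeR) with its 95% interval for the 6 tested forkhead genes of the set (black) and the 12 other forkhead genes tested (grey); dotted lines mark an absolute value of 0.58. The intervals of Foxo1, Foxs1 and, narrowly, Foxj2 exclude 0, and those of Foxo4, Foxc1, Foxe1 and Foxq1 are the widest.

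Set side by side per kilobase of exon, the controls ordered as *Foxp1* (7.26 ± 1.31 CPM per kb), *Foxo1* (7.24 ± 2.26), *Foxc2* (5.20 ± 0.82), *Foxo3* (1.93 ± 0.24), *Foxo4* (0.348), *Foxc1* (0.297) and *Foxf1* (0.0609). Neighbours in this order overlapped between libraries, apart from the steps from *Foxc2* to *Foxo3* and from *Foxo3* to *Foxo4*, which stood clear. Among all genes the controls placed *Foxp1* at rank 3617 and *Foxo3* at rank 8123 of 22155 genes with a count and an annotated length. In *Wt1KOΔEC* the same scale gave *Foxp1* 7.62 ± 0.94, *Foxc2* 7.09 ± 1.64, *Foxo1* 3.91 ± 0.25 and *Foxo3* 1.42 ± 0.28 CPM per kb. *Foxo1* was thus above *Foxc2* in all 3 control libraries and below it in all 3 *Wt1KOΔEC* libraries, an order noticed after the values were seen and not tested. *Foxp1* levels per length depend on the length used, because the gene has 57 annotated transcripts: with the longest transcript in place of all exons it measured 14.4 and 15.1 CPM per kb.

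**Figure D4:**
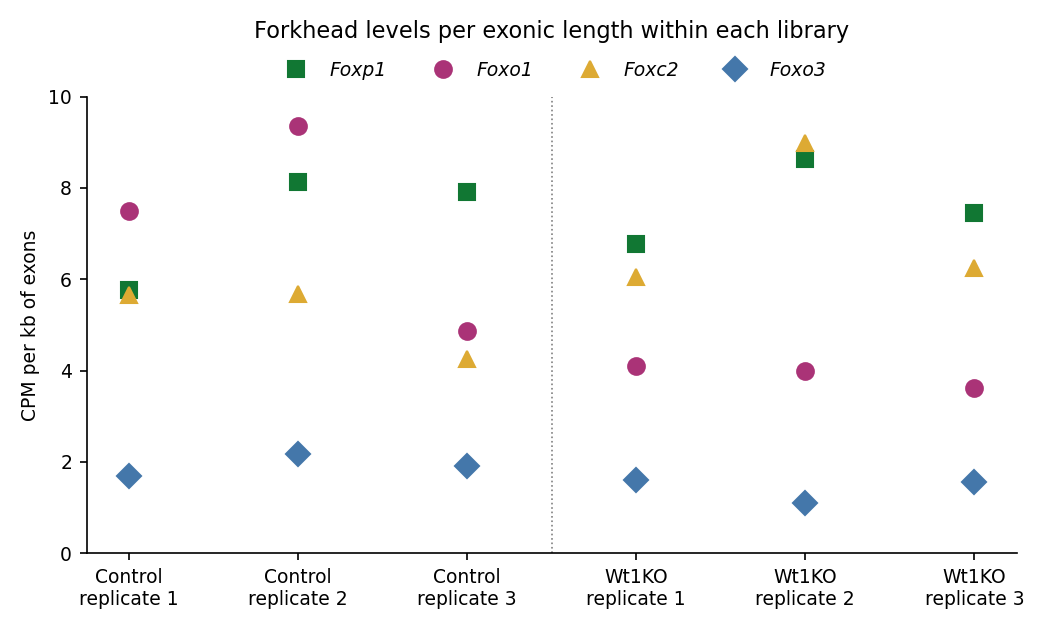
Level per kilobase of exon (CPM per kb, linear axis from 0) of the 4 most abundant forkhead genes of the set in each library, with the controls left of the dotted line. Foxo1 (circles) lies above Foxc2 (triangles) in the 3 ControlΔEC libraries and below it in the 3 Wt1KOΔEC libraries, while Foxo3 (diamonds) lies below both throughout.

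Over the 6 libraries the members did not follow 1 common course. Pearson's r of log2 CPM was 0.67 between *Foxo1* and *Foxo3* and 0.81 between *Foxo4* and *Foxp1*, while *Foxo3* and *Foxc2* ran opposite at -0.84. These values rest on 6 libraries that share the genotype contrast and their depths, and are descriptions. The genes of at least 10 CPM whose course was most like that of *Foxo1* were *Itpkb* (r = 0.995), *Wwc2* (0.992) and *Lsp1* (0.992), out of 8469 compared. *Lsp1* is known as a leukocyte gene. For *Foxo3* they were *Zfp142* (0.988), *Cpped1* (0.978) and *Arl5a* (0.976), and for *Foxc2* *Tmem160* (0.984), *Sipa1* (0.983) and *Nup93* (0.974). For *Foxp1* they were *Alg1* (0.991), *Bmx* (0.988), an endothelial kinase gene, and *Hdac4* (0.988). For the low genes they were *Snrk* (0.997), *Spdl1* (0.983) and *Ankrd27* (0.981) for *Foxo4*, and *Slc37a4* (0.985), *Lonp2* (0.971) and *Znfx1* (0.965) for *Foxc1*. Each of these rankings was built on only 6 points.

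The genes beside the members on the chromosome were counted to see whether reads or neighbours could enter the values. *Gm20696*, a model that shares exons and strand with *Foxp1*, held 76, 80 and 62 counts in controls and 32, 25 and 6 in *Wt1KOΔEC*, far fewer than *Foxp1* itself, and reads in the shared exons could be assigned to either. *Gm38034*, inside *Foxo1* without exon overlap, had at most 47 counts in any library, and *Gm20402*, antisense to *Foxo1*, had none. *Il2rg*, the cytokine receptor common gamma chain gene 3505 bp from *Foxo4*, measured 191 CPM in controls and 129 CPM in *Wt1KOΔEC* (log2 fold change -0.57, unadjusted p = 0.0112, edgeR adjusted p = 0.251). *Gmds*, 6313 bp from *Foxc1*, had a log2 fold change of 0.50 (edgeR adjusted p = 0.382), and *Mthfsd*, between *Foxf1* and *Foxc2*, one of 0.18 (edgeR adjusted p = 0.880). *Med12*, *Snx12* and *Nlgn3* near *Foxo4* and *Afg1l* near *Foxo3* had edgeR adjusted p-values between 0.659 and 0.993.

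The other 38 forkhead genes in the table give the wider family. Of these, 12 passed the filter, 15 had no count in any library and 11 had counts too few to test. At an unadjusted p under 0.05, 2 of the 12 were lower in *Wt1KOΔEC* and none was higher, beside 7.12% lower and 5.96% higher of all genes, and their median log2 fold change was -0.22. edgeR called none of them and DESeq2 called 1 (*Foxs1*), where it called 4.67% of all genes. The count of 2 became 4 without control replicate 3 and 1 without any of the other libraries. *Foxs1*, a forkhead gene known from pericytes, measured 6.79, 3.77 and 4.75 CPM in controls and 0.461, 0.814 and 0.396 CPM in *Wt1KOΔEC*. The genotypes stood far apart, with 137 to 304 counts in control and 10 to 29 in *Wt1KOΔEC* libraries. Its log2 fold change was -3.19 (SE 0.70, 95% interval -4.77 to -1.598), at an unadjusted p of 0.0014, an edgeR adjusted p of 0.150 and a DESeq2 adjusted p of 1.88e-05. *Foxs1* lies at chr2:152773818-152775128, on the same chromosome as *Wt1* (chr2:104956625-105003961).

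Summed mural cell markers lay lower in *Wt1KOΔEC*, as *Foxs1* did. The 6 genes (*Rgs5*, *Pdgfrb*, *Cspg4*, *Kcnj8*, *Notch3*, *Acta2*) summed to 365, 178 and 364 CPM in controls and 142, 155 and 148 CPM in *Wt1KOΔEC*, all 6 had log2 fold changes below 0, 3 had an unadjusted p under 0.05 and no gene of the list was at 0 in all libraries. *Rgs5* measured 119 and 20.9 CPM on average (log2 fold change -2.50, edgeR adjusted p = 0.163). *Acta2* (45.3 and 44.2 CPM, log2 fold change -0.04) and *Notch3* (3.49 and 2.92 CPM, log2 fold change -0.26) overlapped between the genotypes. Control replicate 2 was the lowest control for both *Foxs1* and the mural sum. The paper counts *Rgs5* and *Kcnj8* of this list as arterial markers, so the sum does not report on mural cells alone. The part of mural or arterial endothelial RNA in the *Foxs1* values was not tested.

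*Foxj2* measured 21.5, 17.0 and 10.7 CPM in controls and 10.8, 8.93 and 9.93 CPM in *Wt1KOΔEC* (log2 fold change -0.73, SE 0.32, unadjusted p = 0.0475, edgeR adjusted p = 0.378), overlapping by the narrow step between 10.7 and 10.8 CPM. *Foxm1*, the forkhead factor of dividing cells, measured 32.01 ± 3.03 and 27.0 ± 5.79 CPM (log2 fold change -0.25, edgeR adjusted p = 0.742). On the length of all exons, *Foxn2* had the highest level of the forkhead genes tested, 8.47 CPM per kb in controls and 9.02 in *Wt1KOΔEC*. The remaining tested genes, *Foxk1* (-0.64), *Foxk2* (-0.19), *Foxj3* (-0.17), *Foxn3* (0.13), *Foxp2* (0.41), *Foxp4* (-0.64), *Foxe1* (-1.68) and *Foxq1* (0.41), had the log2 fold changes in brackets and edgeR adjusted p-values between 0.565 and 0.961. Without control replicate 2, *Foxp4* stood at -0.0040 and *Foxe1* at -0.58, and without *Wt1KOΔEC* replicate 3 *Foxe1* stood at -2.34.

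Regulators of FOXO proteins were next described as a list of 24 genes that covers PI3-kinase, AKT, the Ywha adaptors, and enzymes that modify or degrade FOXO. All 24 were tested, and neither edgeR nor DESeq2 called any (0 of 24). At an unadjusted p under 0.05, 2 were lower in *Wt1KOΔEC* and none higher, near the 7.12% lower and 5.96% higher of all genes, with a median log2 fold change of -0.08. This count was 5 without control replicate 1 and 1 without any *Wt1KOΔEC* library. *Rictor*, the defining subunit of the complex mTORC2 that completes AKT activation, measured 43.0, 38.0 and 59.4 CPM in controls and 26.6, 34.9 and 26.1 CPM in *Wt1KOΔEC*. These did not overlap, and the log2 fold change was -0.68 (SE 0.23, unadjusted p = 0.0172, edgeR adjusted p = 0.276). *Mapk8*, which encodes the stress kinase JNK1, measured 6.12, 14.95 and 20.3 CPM and 4.37, 6.46 and 7.75 CPM (log2 fold change -1.16, edgeR adjusted p = 0.341), with overlap. The kinase genes *Akt1* and *Akt2* had log2 fold changes of 0.08 and -0.21. Both overlapped between the genotypes, with edgeR adjusted p-values of 0.931 and 0.892.

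Genes that FOXO factors activate in some tissue lay on both sides of no change. Of 29 listed, 28 were tested, edgeR called none and DESeq2 1 (*Pdk4*), 2 were higher and 2 lower at an unadjusted p under 0.05, near the shares of all genes (13.1% at that p and 4.67% called by DESeq2), and the median log2 fold change was 0.02. The 4 became 1 without control replicate 1, 0 without *Wt1KOΔEC* replicate 1 and 2 without *Wt1KOΔEC* replicate 3. *Pdk4*, a mitochondrial kinase that restrains glucose oxidation, measured 16.2, 6.0 and 38.7 CPM in controls and 83.3, 43.8 and 60.4 CPM in *Wt1KOΔEC*. The genotypes did not overlap although the controls varied several-fold (log2 fold change 1.63, SE 0.56, edgeR adjusted p = 0.278, DESeq2 adjusted p = 0.0484). With each library left out in turn, the log2 fold change of *Pdk4* ran from 1.19 to 2.499, the latter without control replicate 3. *Ccng2*, an atypical cyclin of arrested cells, measured 56.1, 61.2 and 20.1 CPM in controls and 21.3, 24.7 and 21.0 CPM in *Wt1KOΔEC*. Its log2 fold change of -1.04 (edgeR adjusted p = 0.290) rested on control replicates 1 and 2, since replicate 3 lay below all *Wt1KOΔEC* libraries. *Bnip3*, a mitophagy receptor gene, averaged 39.2 and 55.6 CPM (log2 fold change 0.50, edgeR adjusted p = 0.362), with overlap. The cell cycle inhibitor gene *Cdkn1b* (4.84 and 8.0 CPM) and the stress gene *Sesn3* (7.75 and 12.7 CPM) were higher without overlap and *Rbl2* (20.4 and 14.2 CPM) lower without overlap, each with an unadjusted p above 0.05.

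The arrest and apoptosis genes most often tied to FOXO were mixed as well. *Cdkn1a* had a log2 fold change of 0.22, *Bcl2l11* -0.44, *Bbc3* -0.68 and *Gadd45a* 0.11. The antioxidant genes *Sod2* (-0.20) and *Cat* (-0.01) and the insulin pathway genes *Insr* (-0.37) and *Irs2* (0.22) had the log2 fold changes in brackets, and *Angpt2*, the angiopoietin of sprouting endothelium, 0.44. None of these passed the test (edgeR adjusted p-values between 0.488 and 0.988).

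Among 4 genes that FOXO factors repress, *Ccnd2*, a D-type cyclin of cell cycle entry, had the smallest p. It measured 129, 183 and 160 CPM in controls and 265, 284 and 254 CPM in *Wt1KOΔEC*, with the groups well apart. The means were 157 ± 27.0 and 268 ± 15.4 CPM (log2 fold change 0.77, SE 0.17, unadjusted p = 0.00137), at an edgeR adjusted p of 0.149 and a DESeq2 adjusted p of 0.00113. *Nos3*, the endothelial nitric oxide synthase gene, lay the other way, at 555, 705 and 516 CPM in controls and 386, 504 and 378 CPM in *Wt1KOΔEC* (log2 fold change -0.49, unadjusted p = 0.0253, edgeR adjusted p = 0.310). *Myc* averaged 142 and 194 CPM (log2 fold change 0.45, edgeR adjusted p = 0.408) and *Ccnd1* 226 and 212 CPM (-0.10, edgeR adjusted p = 0.900), both with overlap. The median log2 fold change of the 4 was 0.18. At an unadjusted p under 0.05, 1 was higher and 1 lower, which became 1 gene in all without control replicate 2, *Wt1KOΔEC* replicate 1 or *Wt1KOΔEC* replicate 3, and only DESeq2 called 1 (*Ccnd2*). Of all genes 5.96% were higher and 7.12% lower at that p, and DESeq2 called 4.67%.

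Genes placed downstream of FOXC, FOXF1 or FOXP1 in vessels were the last list. Of 9, 8 were tested and neither tool called any, with 2 higher and 1 lower in *Wt1KOΔEC* at an unadjusted p under 0.05 (1 in all without *Wt1KOΔEC* replicate 1), beside 5.96% higher and 7.12% lower of all genes, and a median log2 fold change of -0.17. *S1pr1*, the sphingosine-1-phosphate receptor of quiescent endothelium, measured 306, 336 and 361 CPM in controls and 489, 491 and 446 CPM in *Wt1KOΔEC*. The replicates were tight within each genotype and the groups apart, and the log2 fold change was 0.51 (SE 0.14, unadjusted p = 0.00584, edgeR adjusted p = 0.220, DESeq2 adjusted p = 0.00523), below the limit of 0.58. *Cxcr4*, the CXCL12 receptor gene, measured 15.3, 11.8 and 15.3 CPM and 26.3, 24.2 and 18.0 CPM (log2 fold change 0.69, edgeR adjusted p = 0.302), without overlap. *Sema5b* measured 5.47, 5.37 and 2.15 CPM and 1.05, 1.80 and 0.198 CPM (log2 fold change -2.09, SE 0.89, edgeR adjusted p = 0.365), and -2.78 on the log2 scale without *Wt1KOΔEC* replicate 2. The arterial genes *Dll4* (294 and 267 CPM) and *Hey2* (2.35 and 2.76 CPM) and the receptor genes *Kdr* (1136 and 931 CPM) and *Tek* (392 and 340 CPM) did not pass the test, although *Kdr* did not overlap.

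**Figure D5:**
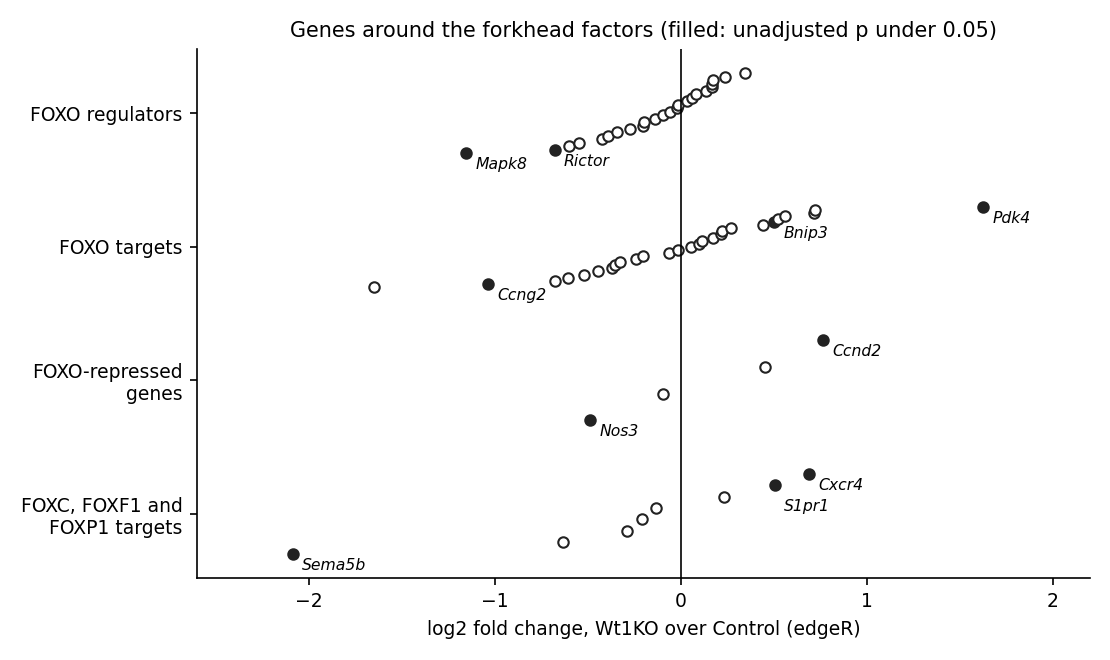
Log2 fold change (Wt1KOΔEC over ControlΔEC, edgeR) of the tested genes in 4 lists around the forkhead factors; filled points have an unadjusted p under 0.05 and carry their name, and 1 FOXO target is not drawn. FOXO targets spread to both sides of 0, and FOXO regulators lie nearer to it (9 above and 15 below).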

How the data were processed

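Total RNA of mGFP+ ECs was amplified by SMART-seq2, without molecular identifiers, and made into Nextera XT libraries (3 *ControlΔEC*, 3 *Wt1KOΔEC*). The authors aligned reads to GRCm39 with STAR 2.7.8a and estimated expected counts per gene with RSEM 1.3.0 on GENCODE vM27, per the study's methods, although the submitters' processing notes list GRCm38. The deposited values are these expected counts as whole numbers, not normalized. Reads were not stranded.

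Here, counts were normalized by TMM and tested with edgeR 4.0.16 (quasi-likelihood F test, genotype only, all 6 libraries) in R 4.3.3, with Benjamini-Hochberg adjustment over the 16296 genes for which 2 or more libraries held 10 or more counts. The SE was taken as the absolute log2 fold change divided by √F. Levels per kb used the union of exons in GENCODE vM39 (GRCm39). The floor was 3 counts in every library, and the depth of 26037324 to 44779020 counts, with the TMM scaling, sets the CPM it equals. The p-values measure the spread between these libraries only. Library codes form separate series that split exactly with genotype, and the labels do not say what the series stand for. Any difference in handling between them could not be told apart from genotype. Alternatives were DESeq2 1.42.0 (run without the count filter), limma-voom (limma 3.58.1), other scalings, other filters, the replicate number as a block and each library left out. The steps were tested on simulated data.

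The members and gene lists were chosen with earlier results of these data known. Genes named are the 7 members, other forkhead genes passing the filter, list genes at an unadjusted p under 0.05, genes within 50 kb of a member, the 3 most similar genes per member by Pearson's r of log2(CPM + 2), *Wt1* and markers that moved with genotype. The remaining list genes given with values were named after these were seen. Same-numbered libraries of the 2 genotypes deviated together only weakly (r = 0.05, 0.09 and 0.06), so the numbers were not taken as pairs. Some genes of these lists entered the fits and counts and are not reported here by name.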

Additional observations from a re-analysis of the deposited data

How the results depend on the processing

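The number of genes called over the whole table depended strongly on the processing, the cause of which was not tested: 12 as reported (8 higher and 4 lower), 759 with DESeq2, 296 without a filter, 113 with at least 10 counts in every library, 5 with the replicate number as a block, and 2 to 37 with each library left out. Library size scaling alone gave 11 (5 higher and 6 lower). *Foxo1* was lower under all 15 alternatives. It passed the threshold under 2 of them, DESeq2 (-0.90) and no filter (-0.89, adjusted p = 0.0478), so 1 forkhead gene of the set was called there against 0 otherwise, leave-one-out fits included (0 to 0). With the replicate block *Foxo1* was -0.84 (adjusted p = 0.231), and its leave-one-out values ran from -1.11 to -0.66. *Foxo3* kept its direction in all 15 (leave-one-out -0.54 to -0.29), as did *Foxc2* (0.24 to 0.55). The sign of the others was not fixed: *Foxo4* turned to -0.087 under library size only and -0.38 without control replicate 1 (leave-one-out -0.38 to 0.81), *Foxc1* to -0.10 without *Wt1KOΔEC* replicate 1 (-0.10 to 0.82), and *Foxp1* to -0.088 under library size only, -0.073 without control replicate 1 and -0.031 without *Wt1KOΔEC* replicate 2 (-0.073 to 0.16). Of the other forkhead genes, *Foxn2* turned to -0.059 and *Foxn3* to -0.033 under library size only, *Foxn2* to -0.0055 without control replicate 1 and -0.11 without control replicate 2 (leave-one-out -0.11 to 0.45), *Foxq1* to -0.17 without control replicate 1 (-0.17 to 1.11) and *Foxk2* to 0.090 without *Wt1KOΔEC* replicate 1 (-0.53 to 0.090).

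The number of other forkhead genes at an unadjusted p under 0.05 went from 2 to 1 with limma-voom, upper-quartile normalization, at least 10 counts in every library and the replicate block, and ran from 1 to 4 with each library left out. FOXO regulators went from 2 to 1 with limma-voom (leave-one-out 1 to 5). FOXO targets went from 4 to 2 with the replicate block (leave-one-out 0 to 5). FOXO-repressed genes ran from 1 to 3 over all alternatives. The FOXC, FOXF1 and FOXP1 targets ran from 1 to 4 (leave-one-out 1 to 3), with 4 under DESeq2 and under limma-voom. *Foxs1* passed the threshold with DESeq2 and with at least 10 counts in every library (adjusted p = 0.0348), and *Pdk4* and *Ccnd2* with DESeq2 and without a filter. Both *Foxo1* ratios kept their direction in all 7 alternatives. With the longest transcript as the length, levels moved to 4.18 (*Foxo1*, *Wt1KOΔEC*), 2.27 (*Foxo3*, control), 0.411 (*Foxo4*, *Wt1KOΔEC*), 14.4 and 15.1 (*Foxp1*) CPM per kb. In their deviations from the group means, each library correlated best with the same number in the other genotype, a hint from the data and not from the design. *Foxo4*, *Foxc1* and *Foxf1* held at most 137 counts in any library.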
